A study of Homo sapiens with 6 samples.

Results

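Small nucleolar RNA host genes were followed in total RNA sequencing of a human neuroblastoma cell line, in 3 libraries labelled EtOH, the vehicle ethanol, and 3 labelled Tet, given tetracycline for 5 days. A gene was taken when its identifier mapped to a symbol made of SNHG and a number, or to GAS5, ZFAS1, EPB41L4A-AS1 or DANCR, which gave 32 of the 60651 genes in the tables. The annotation matched the name for most of them, since 27 of the 32 held at least 1 gene annotated as a small nucleolar RNA (snoRNA) inside their span on the same strand, while 5 held none. Of those 5, SNHG10, SNHG20, SNHG21 and SNHG22 held a gene annotated as a small Cajal body RNA, the related class that guides modification of spliceosomal RNA. GAS5 held neither in this annotation, so the C/D box snoRNAs for which it is known had no values of their own.

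The labels did not describe 1 cell model. The titles named IMR575, a MYCN-amplified line. The growth protocol described SK-N-SH cells, stably transfected with the tetracycline repressor and a tetracycline-inducible MYCN construct and kept as single clones under G418 and Blasticidin in both groups, and a further tag called the groups knockdown control and knockdown induction. In the study, MYCN was induced in an SK-N-AS model and knocked down in an IMR-5/75 model, so whether tetracycline should raise or lower MYCN cannot be told apart from the labels, and the libraries are called by their label. The labels did not say whether the 3 libraries of a group came from separate cultures, while the study's methods describe its cell experiments in general as independent biological replicates.

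A snoRNA host gene is transcribed into a long RNA whose exons are spliced together while short guide RNAs are trimmed from its introns. C/D box snoRNAs then direct methylation of the ribose and H/ACA box snoRNAs direct pseudouridylation, chiefly of ribosomal RNA. The spliced host RNAs often begin with a 5′ terminal oligopyrimidine tract, the run of C and U with which ribosomal protein mRNAs also begin, and many are short-lived because translation of their small open reading frames exposes them to nonsense-mediated decay (NMD). Several, among them GAS5, SNHG1 and SNHG16, have been studied as long noncoding RNAs in their own right in cancer, and MYC proteins are known regulators of ribosome production.

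Because the start of these transcripts is the feature that ties them to ribosomal protein mRNAs, the 40 bases around the RefSeq start site are shown for the 8 genes whose levels separated the groups and for 4 comparison genes that did not. Each stretch runs 5′ to 3′ on the strand of the gene, from 15 bases before the start to the 25th base of the transcript, on GRCh38.p14. Capitals mark the longest run of C and T that touches the first 10 transcribed bases.
SNHG1, chr11:62855861-62855900, minus strand: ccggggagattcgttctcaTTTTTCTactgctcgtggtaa
SNHG3, chr1:28505928-28505967, plus strand: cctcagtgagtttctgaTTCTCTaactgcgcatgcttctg
SNHG4, chr5:139274086-139274125, plus strand: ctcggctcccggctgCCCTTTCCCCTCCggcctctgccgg
SNHG5, chr6:85678709-85678748, minus strand: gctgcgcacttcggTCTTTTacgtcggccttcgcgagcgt
ZFAS1, chr20:49278627-49278666, plus strand: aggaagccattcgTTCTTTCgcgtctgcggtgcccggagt
SNHG19, chr16:2155334-2155373, minus strand: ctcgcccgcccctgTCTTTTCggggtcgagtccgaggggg
GAS5, chr1:173869021-173869060, minus strand: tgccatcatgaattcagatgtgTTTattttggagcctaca
SNHG21, chr15:82750549-82750588, plus strand: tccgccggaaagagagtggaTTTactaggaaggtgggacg
SNHG16, chr17:76557749-76557788, plus strand: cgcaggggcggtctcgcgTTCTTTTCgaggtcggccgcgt
SNHG8, chr4:118278747-118278786, plus strand: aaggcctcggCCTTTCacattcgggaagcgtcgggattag
EPB41L4A-AS1, chr5:112160511-112160550, plus strand: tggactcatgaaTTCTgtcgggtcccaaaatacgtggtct
SNHG31, chr2:214810214-214810253, plus strand: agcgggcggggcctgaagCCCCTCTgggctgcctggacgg

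A RefSeq window was found for 28 of the 32 genes. In 4 of them the RefSeq start lies upstream of the gene as counted, by 163 bases in GAS5, 37 in SNHG3, 1 in SNHG4 and 154975 in SNHG14. The start shown for GAS5 and SNHG3 is therefore not that of a counted transcript. Other starts lie inside the counted gene. As bases upstream, these were -464 in ZFAS1, -199 in SNHG5, -68 in SNHG1, -53 in SNHG8 and -48 in SNHG31. Among windows not shown they reached -1259 in SNHG12, -1927 in SNHG20 and -37251 in SNHG27. The longest run of C and T at the start had a median of 6 bases in the 28 windows and of 3 bases over all 35116 windows. A run of at least 6 bases, a limit chosen after the values were seen, was present in 15 of the 28 windows (53.6%) and in 18.6% of all windows. The letters CACGTG, the E-box bound by MYC proteins, which read the same on both strands, were found in the 300-base windows of 2 of the 28 genes (7.14%), SNHG7 and SNHG30, and in 7.26% of all windows. The long run at the start was therefore more frequent among these windows than among all windows, whereas the E-box letters were present at about the common share.

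The 6 libraries held between 27933378 and 40498065 counts, and 3 counts corresponded to between 0.0741 and 0.107 CPM, counts scaled to a library of 1000000 counts. Along the first principal component, which held 44.7% of the variance of the tested genes, EtOH replicate 2 and Tet replicate 2 lay at one end, and the labels were separated on the second, which held 25.7%. The libraries also differed in base composition, since the rank correlation across the 22443 tested genes between the GC share of exon bases and a gene's deviation in a library ran from -0.38 in EtOH replicate 2 to 0.41 in Tet replicate 3. Adrenergic neuroblastoma markers were present (HAND2 between 60.1 and 137 CPM), although TH and DBH, enzymes of catecholamine synthesis, stayed below 0.5 CPM in every library. Of the 5 adrenergic markers tested, GATA3, ISL1 and PHOX2A were higher in every Tet library than in any EtOH library, while the 5 mesenchymal markers summed to 132 to 254 CPM in the EtOH libraries and 116 to 171 CPM in the Tet libraries. None of these passed the threshold with edgeR, although 3 adrenergic markers were higher, and 1 mesenchymal marker was higher and 1 lower, at an unadjusted p under 0.05, and their part in the differences of the host genes was not tested. Of the markers of other cells, PECAM1 of endothelium was at or near 0, and the summed level of the blood, epithelial, endothelial and fibroblast markers lay between 4.60 and 5.88 CPM in the EtOH libraries and between 3.90 and 5.71 CPM in the Tet libraries. Within that sum EPCAM of epithelium, at 0.753, 0.866 and 0.496 CPM in the EtOH libraries, was higher in every Tet library, at 1.77, 1.64 and 1.46 CPM (adjusted p = 0.264 by edgeR), and COL1A1 of fibroblasts had a log2 fold change of -0.54. Levels are given from here on as CPM after TMM scaling of the library totals, and changes are log2 fold changes of Tet over EtOH from edgeR's quasi-likelihood test, with p-values adjusted by Benjamini-Hochberg over all 22443 genes tested.

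MYCN, the gene the system was built to regulate, did not separate the labels. It stood at 158, 256 and 156 CPM in EtOH replicates 1 to 3 and at 197, 200.1 and 145 CPM in Tet replicates 1 to 3. The groups overlapped, and edgeR gave a log2 fold change of -0.07 with an SE of 0.23 (adjusted p = 0.956). Without EtOH replicate 2 it was 0.21, without Tet replicate 3 it was 0.07 and without both libraries numbered 2 it was 0.13, and in none of these did it pass the threshold.

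Levels of the host genes covered a wide range. Per exon length and scaled to a common total (TPM), GAS5 was the most abundant, with a mean of 199.8 TPM over the 6 libraries. It was followed by SNHG16 with 103 TPM, SNHG1 with 85.2 TPM, SNHG6 with 78.0 TPM, SNHG3 with 74.4 TPM and SNHG8 with 66.8 TPM. SNHG29, SNHG4, SNHG5 and EPB41L4A-AS1 lay between 19.9 and 29.4 TPM, and SNHG31, ZFAS1, SNHG12 and SNHG26 between 12.9 and 19.6 TPM. These values use every base annotated as exonic, and in SNHG1, SNHG8 and SNHG15 the exons of all isoforms together cover 100% of the gene, so reads of retained introns were counted there. By counts without regard to length, 6 genes had a mean of at least 100 CPM, the 5 highest held 64.7% of the summed CPM of all 32, and 6 genes had a mean under 1 CPM.

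The genes with little signal included those of the highest GC content. The exon bases of the 32 genes had a median GC share of 46.4%, ranging from 38.4% in SNHG31 to 66.4% in SNHG9, and the tested genes of the whole tables had a median of 44.7%. All 4 genes with at least 55% GC, SNHG7, SNHG9, SNHG19 and SNHG25, had a mean under 5 CPM. The rank correlation between GC share and mean TPM was -0.51 across the 32 genes and -0.48 across all 22443 tested genes, which share the same libraries. The part of base composition in the low values was not tested.

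Counts of 4 genes were too low for the test. SNHG28, in which 90.8% of exon bases are shared with other genes, had no count in any library. SNHG9 had 1 count, in Tet replicate 3, and SNHG27 had 4 counts over all 6 libraries. SNHG25 lay between 0 and 0.154 CPM in the EtOH libraries and between 0.127 and 0.241 CPM in the Tet libraries. The other 28 genes passed the filter on low counts.

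**Figure D1:**
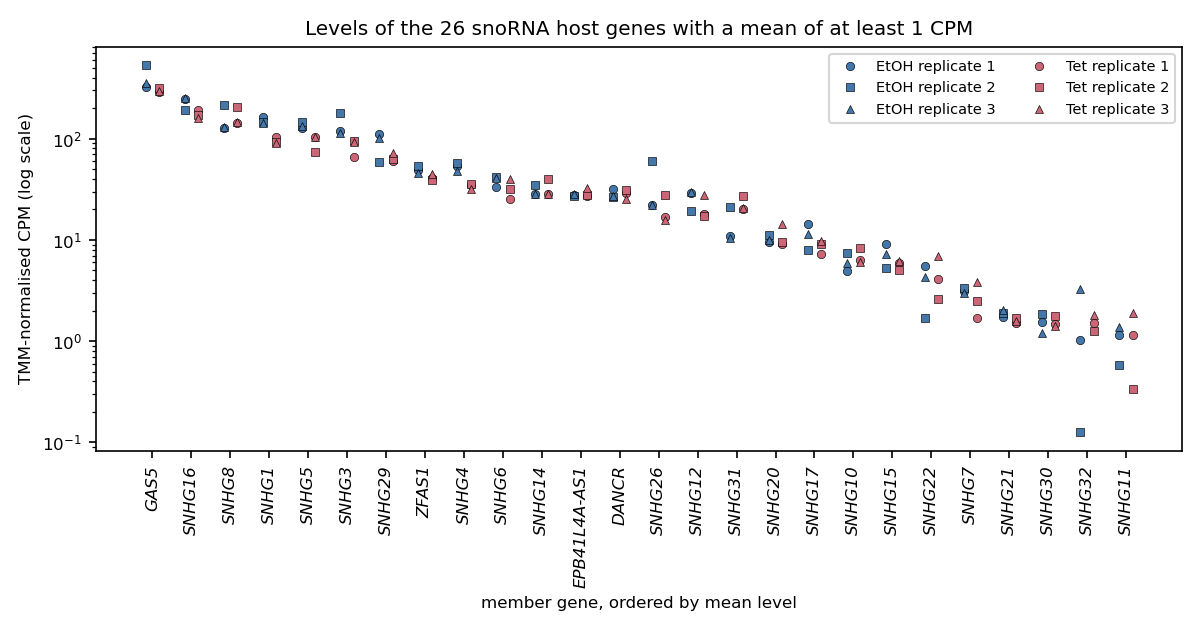
TMM-normalised CPM on a log axis for the 26 host genes with a mean of at least 1 CPM, ordered by mean level, with EtOH libraries in blue and Tet libraries in red and a marker shape for each replicate number. The squares of replicate 2 stand above the others of their group in genes such as SNHG8 and SNHG26, and the red points of SNHG1 and SNHG4 lie wholly below the blue ones.

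The host genes were lower on balance in the Tet libraries, but no single gene passed the threshold. Of the 28 tested, 18 had a log2 fold change below 0 and 10 above 0, with a median of -0.25 beside -0.01 over all 22443 genes. With edgeR, 0 of the 28 had an adjusted p under 0.05, where 20 of all genes were called lower (0.0891%) and 33 higher (0.147%). The lowest adjusted p was 0.121, of SNHG1. At an unadjusted p under 0.05, 6 host genes were lower (SNHG1, SNHG4, SNHG5, SNHG19, SNHG3 and SNHG16), beside 4.94% of all genes, and SNHG31 alone was higher, beside 5.83%. DESeq2 called SNHG1 (log2 fold change -0.67, adjusted p = 0.0358), in a setting where it called 500 of 40467 genes, 210 of them lower. In bulk RNA, fewer cells of a type and less RNA per cell cannot be told apart.

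In 8 of the 32 genes every Tet library lay below every EtOH library, and in 0 did every Tet library lie above. All 8 were among the 28 tested. Over all tested genes the shares were 8.29% lower and 9.21% higher. The 8 were GAS5, SNHG1, SNHG3, SNHG4, SNHG5, ZFAS1, SNHG19 and SNHG21. The count was 14 without EtOH replicate 2, when the share of all genes was 21.2%, and 13 without Tet replicate 3, when that share was 12.9%.

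**Figure D2:**
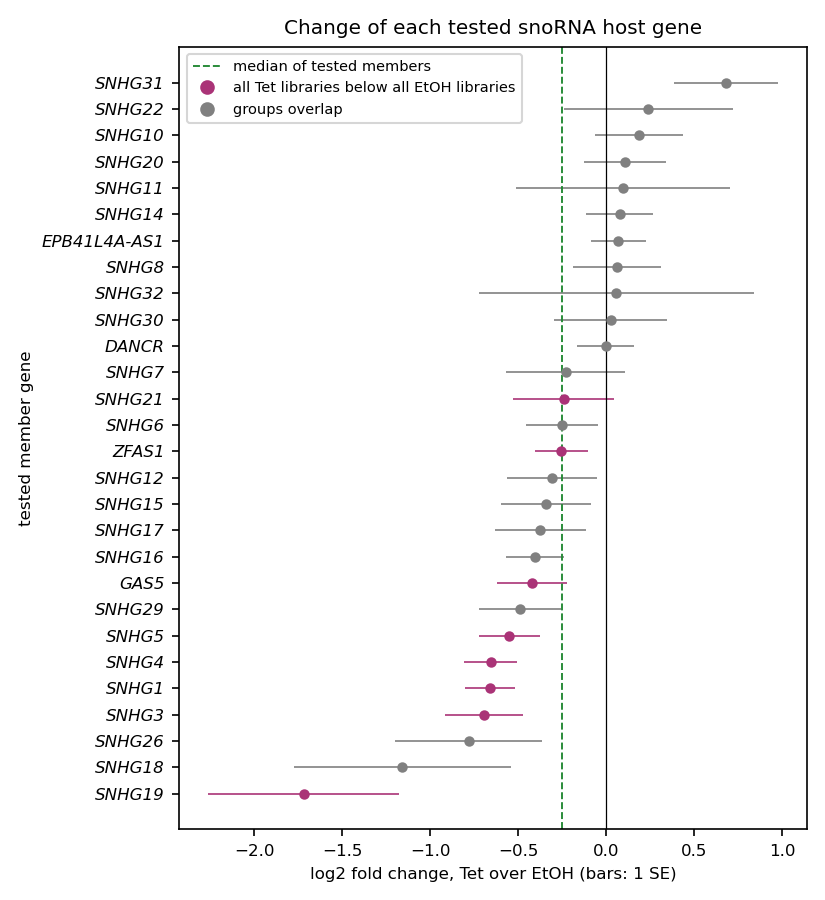
Log2 fold change of Tet over EtOH for each of the 28 tested host genes, with bars of 1 SE from edgeR. Genes whose Tet libraries all lie below all EtOH libraries are in purple, the dashed line is the median of -0.25, and SNHG19 and SNHG18 at the bottom carry wide bars of 0.54 and 0.62.

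SNHG1, on chromosome 11 from 62851984 to 62855953 on the minus strand, carries C/D box snoRNAs, and 7 snoRNA genes lie within it. Its level was 164, 146 and 143 CPM in the EtOH libraries and 103, 92.5 and 91.2 CPM in the Tet libraries. All Tet libraries were lower, with narrow spread in both groups. The mean was 151 ± 11.5 CPM against 95.7 ± 6.67 CPM (SD, n = 3 each), or -0.66 ± 0.14 on the log2 scale (SE, adjusted p = 0.121 with edgeR). It was -0.68 after a correction for GC share (adjusted p = 0.0791).

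SNHG4, on chromosome 5 from 139274102 to 139284899, hosts H/ACA snoRNAs of the SNORA74 family. It measured 54.3, 57.8 and 48.4 CPM in the EtOH libraries and 34.6, 35.8 and 31.5 CPM in the Tet libraries. The groups did not overlap, and replicate 2 did not stand apart in either. By edgeR the change was -0.65 ± 0.15 on the log2 scale (SE, adjusted p = 0.144). MATR3, a nuclear matrix protein gene on the same strand that shares 14.0% of the exon bases of SNHG4 and has a mean of 511 CPM, had a log2 fold change of 0.02.

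SNHG3, on chromosome 1 from 28505980 to 28510892, carries the H/ACA snoRNAs SNORA73A and SNORA73B. The EtOH libraries held 119, 177 and 114 CPM and the Tet libraries 66.3, 95.7 and 91.7 CPM. All Tet values were lower, and EtOH replicate 2 was well above the other EtOH libraries. On the log2 scale the difference came to -0.69 ± 0.22 (SE, adjusted p = 0.294 by edgeR), and without EtOH replicate 2 to -0.45.

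SNHG5, on chromosome 6 from 85650491 to 85678932 on the minus strand, is the host of the C/D box snoRNA SNORD50B. It stood at 129, 147 and 134 CPM in the EtOH libraries and at 103, 73.4 and 103 CPM in the Tet libraries. The lowest value was that of Tet replicate 2, and the groups did not overlap. EdgeR put the difference at -0.55 ± 0.17 on the log2 scale (SE, adjusted p = 0.287).

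GAS5, on chromosome 1 from 173858559 to 173868882 on the minus strand, is a growth-arrest-associated transcript and the textbook case of a host RNA kept low by NMD. Its level was 325, 529.7 and 354 CPM in the EtOH libraries and 288, 317 and 298 CPM in the Tet libraries. The groups separated by a small gap, and EtOH replicate 2 made up much of the spread of its group, whose mean was 403 ± 111 CPM against 301 ± 14.98 CPM (SD, n = 3 each). This gave -0.42 ± 0.20 on the log2 scale (SE, adjusted p = 0.513 by edgeR), and without EtOH replicate 2 it was -0.17.

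SNHG16, on chromosome 17 from 76557764 to 76565348, hosts the SNORD1 snoRNAs. Its values of 246, 191 and 252 CPM in the EtOH libraries and 193, 169 and 159 CPM in the Tet libraries overlapped only through EtOH replicate 2, which lay just below Tet replicate 1. The change came to -0.40 ± 0.16 on the log2 scale (SE, adjusted p = 0.430 by edgeR). An unnamed protein-coding gene on the opposite strand, ENSG00000284526, shares 30.6% of the exon bases of SNHG16 and had a log2 fold change of -0.52 ± 0.23, and reads of both strands could not be told apart in these counts.

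SNHG29, on chromosome 17 from 16438767 to 16478678, holds SNORD49A, SNORD49B and SNORD65. The EtOH libraries held 111, 59.4 and 102 CPM and the Tet libraries 59.6, 62.6 and 71.9 CPM. Here EtOH replicate 2 was the lowest of all 6 libraries, the opposite of its place in GAS5 and SNHG3. With all libraries the change was -0.49 ± 0.23 on the log2 scale (SE, adjusted p = 0.515 by edgeR). Without EtOH replicate 2 it was -0.71 (adjusted p = 0.0299 by edgeR), in a setting where 692 of all 23935 tested genes passed the threshold.

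A few abundant host genes showed little difference in mean. SNHG8 on chromosome 4, host of SNORA24, held 127, 217 and 129 CPM in the EtOH libraries and 143, 206 and 145 CPM in the Tet libraries. Both libraries numbered 2 were far above the rest, and the change of 0.06 ± 0.25 on the log2 scale (SE, adjusted p = 0.969 by edgeR) became negative when EtOH replicate 1, EtOH replicate 3 or Tet replicate 2 was left out. PRSS12 on the opposite strand shares 37.6% of its exon bases. EPB41L4A-AS1 on chromosome 5, host of SNORA13, was almost level at 28.0, 26.9 and 28.7 CPM in the EtOH libraries and 27.2, 27.7 and 32.9 CPM in the Tet libraries (log2 fold change 0.07 ± 0.16, edgeR adjusted p = 0.932). Of its exon bases 56.4% are shared with EPB41L4A.

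SNHG6, host of SNORD87, lay at 33.2, 42.0 and 41.3 CPM in the EtOH libraries and at 25.4, 32.2 and 40.4 CPM in the Tet libraries. Tet replicate 3 reached the range of the EtOH libraries, and the change was -0.25 ± 0.20 on the log2 scale (SE, adjusted p = 0.748 by edgeR), from -0.43 without Tet replicate 3 to -0.11 without Tet replicate 1. ZFAS1, host of the SNORD12 family, lay between 45.4 and 53.7 CPM in the EtOH libraries and between 38.9 and 45.0 CPM in the Tet libraries, without overlap by a margin under 1 CPM. Its log2 fold change was -0.25. DANCR, host of SNORA26 and studied as an inhibitor of cell differentiation, had means of 28.6 CPM against 28.5 CPM. SNHG14, the transcript of the imprinted Prader-Willi region whose introns carry the SNORD115 and SNORD116 arrays, lay between 28.5 and 34.5 CPM in the EtOH libraries and between 28.3 and 39.7 CPM in the Tet libraries. UBE3A, on the opposite strand with a mean of 247 CPM, shares 1.49% of the exon bases of SNHG14. Reads of both strands could not be told apart, and the part of UBE3A reads in the level of SNHG14 was not tested.

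SNHG31, on chromosome 2 from 214810181 to 214963575, had the largest change upward. It held 10.8, 21.2 and 10.3 CPM in the EtOH libraries and 20.3, 26.9 and 20.6 CPM in the Tet libraries. All Tet libraries were above EtOH replicates 1 and 3, but EtOH replicate 2 lay within the Tet range, and replicate 2 was the highest of each group. Its change was 0.68 ± 0.30 on the log2 scale (SE, adjusted p = 0.462 by edgeR). Without EtOH replicate 2 it was 1.10 (adjusted p = 0.0215 by edgeR), in a setting where 692 of all 23935 tested genes passed the threshold. None of the exon bases of SNHG31 is shared with another gene.

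The other genes with the largest changes upward were small in size of change. SNHG22 held 5.56, 1.70 and 4.28 CPM in the EtOH libraries and 4.13, 2.62 and 6.90 CPM in the Tet libraries, a log2 fold change of 0.24 ± 0.48. SNHG10 held 4.91, 7.38 and 5.94 CPM and then 6.40, 8.27 and 6.12 CPM, a log2 fold change of 0.19 ± 0.25. SNHG20 held 9.48, 11.2 and 10.1 CPM and then 9.21, 9.47 and 14.4 CPM, a log2 fold change of 0.11 ± 0.23. These 3 are hosts of small Cajal body RNAs. SNHG11 held 1.16, 0.577 and 1.39 CPM and then 1.15, 0.339 and 1.89 CPM, a log2 fold change of 0.10 ± 0.61. In all 4 the groups overlapped, and in SNHG22, SNHG20 and SNHG11 leaving out a single library turned the direction.

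Among the genes with the largest changes downward, some were at low levels. SNHG19, on chromosome 16 from 2154797 to 2155358 on the minus strand, had the lowest log2 fold change of all, with 0.725, 0.469 and 1.36 CPM in the EtOH libraries and 0.189, 0.254 and 0.327 CPM in the Tet libraries. The groups did not overlap, but the gene had 107 counts over all 6 libraries, and the log2 fold change of -1.72 ± 0.54 had an edgeR adjusted p of 0.287. SNHG18 held 1.07, 0.487 and 1.65 CPM in the EtOH libraries and 0.425, 0.197 and 0.818 CPM in the Tet libraries (log2 fold change -1.16 ± 0.62, edgeR adjusted p = 0.566). Its groups overlapped, and with 1 library left out the change ran from -1.79 to -0.74. SNHG26, host of SNORD93, held 22.1, 60.3 and 22.1 CPM in the EtOH libraries and 16.9, 28.0 and 15.9 CPM in the Tet libraries. EtOH replicate 2 was far above the other libraries. The change was -0.78 ± 0.42 on the log2 scale with all libraries (SE, adjusted p = 0.566 by edgeR) and -0.12 without EtOH replicate 2. The other tested genes, SNHG7, SNHG12, SNHG15, SNHG17, SNHG21, SNHG30 and SNHG32, had log2 fold changes between -0.37 in SNHG17 and 0.06 in SNHG32.

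The place of EtOH replicate 2 was not particular to the host genes. Over all tested genes it lay furthest out on the first principal component, at 84.2 beside 47.3 for Tet replicate 2. Among the 28 tested host genes EtOH replicate 2 was the highest EtOH library in 14 and the lowest in 12. The matching shares over all tested genes were not counted. In 9 genes both libraries numbered 2 were the highest of their group. The host genes thus did not move with this library in 1 direction, and its part in each difference was not tested beyond the values without it.

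Summed over the 32 genes, the level was 1562, 1852 and 1563 CPM in the EtOH libraries and 1238, 1336 and 1284 CPM in the Tet libraries. Every Tet library was below every EtOH library, with the highest sum in EtOH replicate 2. The mean was 1659 ± 167 CPM against 1286 ± 49.0 CPM (SD, n = 3 each), 22.5% lower, a log2 ratio of -0.37. On CPM of the unscaled library total the log2 ratio was -0.41, and on TPM it was -0.45. The sum is a description, to which a few abundant genes contribute most, and was not tested.

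**Figure D3:**
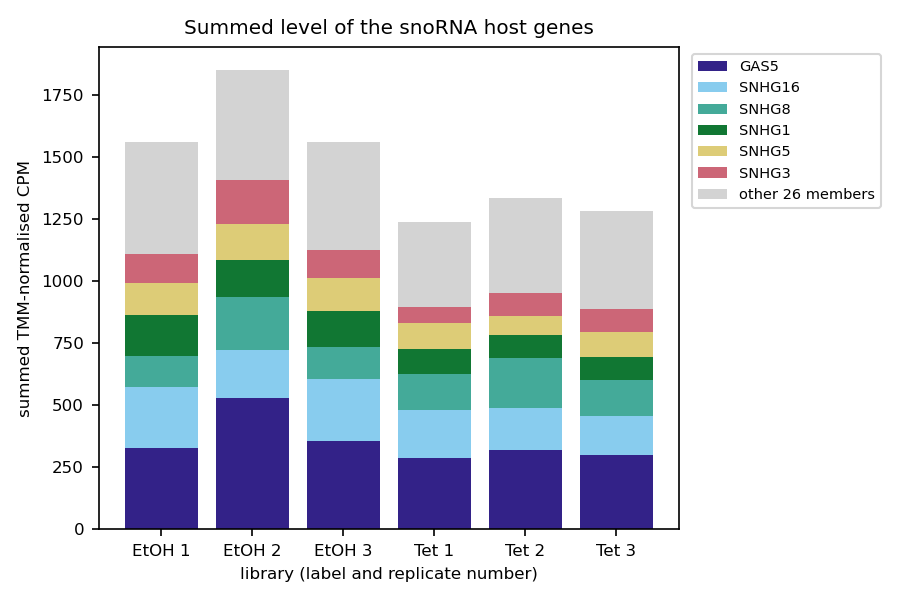
Summed TMM-normalised CPM of the 32 host genes in each library, stacked by the 6 genes of the highest mean level and the other 26. The bars of the EtOH libraries reach 1562, 1852 and 1563 CPM and those of the Tet libraries 1238, 1336 and 1284 CPM, and the GAS5 block is tallest in EtOH replicate 2.

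The start sequences shown above were set beside these changes. Of the tested genes with a window, 14 had a run of at least 6 bases of C and T, and of these 11 had a log2 fold change below 0, with a median of -0.39. The 12 with a shorter run had a median of 0.05, with 5 below 0. Of the 8 genes without overlap, 6 had a long run, of which SNHG3 and SNHG5 were just at the limit of 6 bases. SNHG21 had 3 bases, as had GAS5. For GAS5 and SNHG3 alike, the run was read at a RefSeq start outside the counted gene. SNHG8 and SNHG31, with runs of 6 and 7 bases, had log2 fold changes above 0. The limit of 6 bases was chosen with the values in view, and the difference between the sets was not tested.

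The snoRNA genes inside the hosts were the next readout. In all, 140 snoRNA genes lay within a host gene on the same strand, 84 of them in SNHG14, where only 9 had any count. Near-identical copies of SNORD115 and SNORD116 fill that region, and reads that align to several places were not counted. SNORD64, SNORD107 and SNORD108, which lie in SNHG14 and belong to neither family, had means of 0.0019, 0.0051 and 0.0015 CPM. The cause of the missing counts was not tested. Of the 56 elsewhere, 51 had a count, and 30, in 15 hosts, passed the filter, among them 2 identifiers of SNORA16A with the same values. The libraries were made from total RNA without a step for short RNAs, and 21 of the 30 lie wholly within annotated exons of another gene, their host or its neighbours, with which their reads were divided, so these values may come from the host transcript as well as from the mature snoRNA.

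The sequences of 4 snoRNA genes are printed because they stand for the main hosts, SNHG1, SNHG5 and SNHG3, and for both classes, and because SNORA73B shares no exon base with its host. They are those of GENCODE transcripts on GRCh38, 5′ to 3′, with capitals at the C box TGATGA and the last CTGA, the D box, in C/D box snoRNAs, and at the ACA near the 3′ end of the H/ACA snoRNA.
SNORD27, in SNHG1, chr11:62855012-62855083, minus strand: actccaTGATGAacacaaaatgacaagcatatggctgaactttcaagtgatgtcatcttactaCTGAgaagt
SNORD30, in SNHG1, chr11:62853663-62853732, minus strand: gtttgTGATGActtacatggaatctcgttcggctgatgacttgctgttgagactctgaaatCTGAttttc
SNORD50B, in SNHG5, chr6:85677589-85677658, minus strand: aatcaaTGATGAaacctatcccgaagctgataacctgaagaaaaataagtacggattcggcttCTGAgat
SNORA73B, in SNHG3, chr1:28508559-28508762, plus strand: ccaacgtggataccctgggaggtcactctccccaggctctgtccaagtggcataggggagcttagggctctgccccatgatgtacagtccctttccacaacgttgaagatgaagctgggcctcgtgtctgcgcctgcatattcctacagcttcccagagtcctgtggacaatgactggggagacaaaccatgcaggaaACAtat

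Of the 30 tested snoRNA genes, 25 had a log2 fold change below 0, and the median was -0.48. The 245 tested snoRNA genes outside these hosts had a median of -0.15. With edgeR 0 of the 30 passed the threshold, and 3 were lower at an unadjusted p under 0.05, beside 4.94% of all genes. DESeq2 called 2, and 500 of 40467 genes in all. In 5 the Tet libraries all lay below the EtOH libraries, beside 8.29% of all genes. The 8 that share no exon base with another gene had a median of -0.55, with 6 below 0, and the 22 others a median of -0.46.

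SNORD27 held 7.40, 8.41 and 7.74 CPM in the EtOH libraries and 5.90, 5.92 and 5.38 CPM in the Tet libraries, without overlap (log2 fold change -0.45 ± 0.20, edgeR adjusted p = 0.476). SNORD50B held 8.43, 11.0 and 8.23 CPM and then 7.28, 5.56 and 7.16 CPM, also without overlap (-0.47 ± 0.23, edgeR adjusted p = 0.520). SNORD30 held 5.99, 1.98 and 6.73 CPM and then 3.07, 1.94 and 5.99 CPM, with the lowest value of each group in replicate 2 (-0.42 ± 0.53, edgeR adjusted p = 0.853).

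Both genes listed as SNORD22 in SNHG1 were lower without overlap, with log2 fold changes of -0.85 ± 0.23 and -0.61 ± 0.22 (edgeR adjusted p = 0.201 and 0.358). SNORD26 and SNORD28, also in SNHG1, had log2 fold changes of -0.63 and -0.77 with overlapping groups. SNORA61 in SNHG12, the most abundant of the 30 by CPM with a mean of 8.48, had -0.30 ± 0.28. SNORA73B held 5.19, 5.88 and 3.18 CPM in the EtOH libraries and 2.46, 3.18 and 4.49 CPM in the Tet libraries (-0.49 ± 0.33, edgeR adjusted p = 0.677), and SNORD93 in SNHG26, like its host, was highest in EtOH replicate 2, with 8.66 CPM. The lowest log2 fold change was that of SNORA74D in SNHG4, -2.24 ± 0.56 (edgeR adjusted p = 0.184), from means of 1.26 ± 0.750 and 0.267 ± 0.0602 CPM, and the highest was that of SNORA73A in SNHG3, 0.49 ± 0.60.

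Across the 30 pairs, 23 snoRNA genes had a change of the same sign as their host, and Pearson's r of the log2 fold changes was 0.15, given as a description because pairs share libraries, hosts and in part the same reads. SNHG8 and EPB41L4A-AS1, with log2 fold changes just above 0, held the snoRNA genes SNORA24 at -0.91 and SNORA13 at -0.40. SNHG3 held 1 snoRNA gene on each side of 0.

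**Figure D4:**
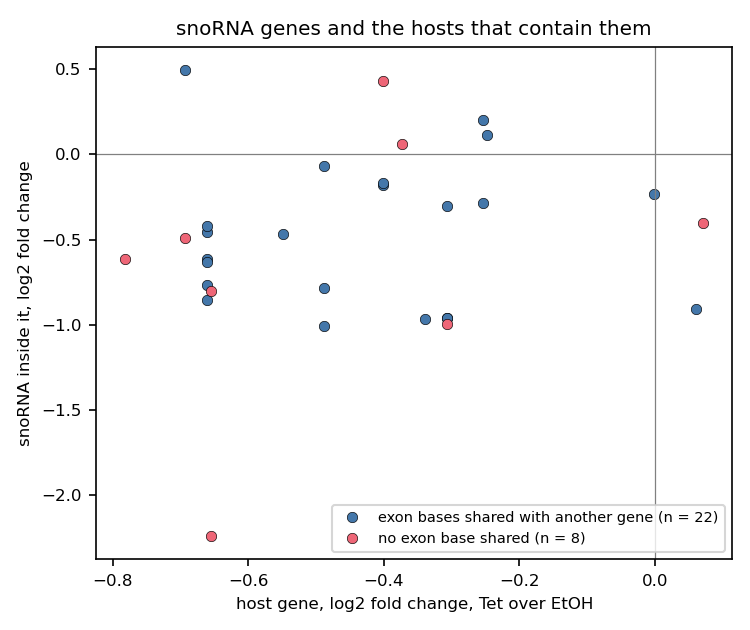
Log2 fold change of Tet over EtOH of each of 30 tested snoRNA genes against that of the host gene containing it, in blue where exon bases are shared with another gene (22) and in red where none is (8). Most points lie below 0 on both axes, and the points of 1 host form a vertical line.

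The machinery around the host genes was read from lists. The 8 core proteins of C/D and H/ACA snoRNA particles were all tested, 0 passed the threshold, 7 had a log2 fold change below 0, and the median was -0.29. NOP56, a C/D core protein, was lowest at -0.63 ± 0.34, and FBL, the methyltransferase fibrillarin, highest at 0.17 ± 0.35. Of 10 assembly factors, 0 passed and 7 were below 0, with a median of -0.26, from -0.54 in RUVBL1, an ATPase of the assembly complex, to 0.22 in ZNHIT3. In both lists no gene had an unadjusted p under 0.05, and DESeq2 called 0 as well.

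NMD bears on the host RNAs because it degrades many of them. Of 15 NMD and exon junction factors 0 passed the threshold and 0 had an unadjusted p under 0.05, with a median of -0.05, from -0.30 in SMG8 to 0.63 in UPF1, the central helicase. In 1 of the 15, SMG1 (log2 fold change -0.24), every Tet library lay below every EtOH library, beside 8.29% of all genes. In 0 did every Tet library lie above, beside 9.21%. Of 7 mRNAs known to be sensitive to NMD, 5 were tested and 0 passed, with a median of -0.24, from -0.83 in MAP3K14 to 0.27 in ATF3. DESeq2 called 0 genes of either list. Of those 5 mRNAs, 3 had a log2 fold change below 0 and 2 above.

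Cytosolic ribosomal protein genes, which share the pyrimidine start and of which many also carry snoRNAs, had a lower median than the host genes but, unlike them, overlapped between the groups in their summed level. Of 89, 86 were tested and 0 passed the threshold, 15 had an unadjusted p under 0.05 and all of those were lower, beside 4.94% of all genes, 8 were lower without overlap, beside 8.29%, 68 had a log2 fold change below 0, and the median was -0.47. DESeq2 called 0. The lowest log2 fold change was that of RPS27, -1.42 ± 0.58. Their summed level was 9306 ± 3376 CPM in the EtOH libraries and 6300 ± 945 CPM in the Tet libraries (SD, n = 3 each), with ranges of 5629 to 12266 CPM and 5488 to 7338 CPM. The difference between this group and the host genes was not tested. Without EtOH replicate 2, 27 of them passed, in a setting where 692 of all 23935 tested genes did. Reads that align equally well to processed pseudogenes were not counted, which makes the levels of this family uncertain.

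Protein-coding genes that hold a snoRNA gene and are not ribosomal proteins had a median closer to that of all genes than the host genes had. Of 226, 199 were tested and 0 passed with edgeR. At an unadjusted p under 0.05, 12 were higher, beside 5.83% of all genes, and 19 lower, beside 4.94%. Without overlap 18 were higher, beside 9.21% of all genes, and 29 lower, beside 8.29%. DESeq2 called 4, and 500 of 40467 genes in all. Their median log2 fold change was -0.04, from -1.86 ± 0.38 in KCNC4 to 1.16 ± 0.68 in SCGB2B2. The medians of groups that carry snoRNAs in introns were -0.25 in the host genes and -0.04 in these protein-coding genes, beside -0.01 in all genes tested, and the difference between them was not tested.

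**Figure D5:**
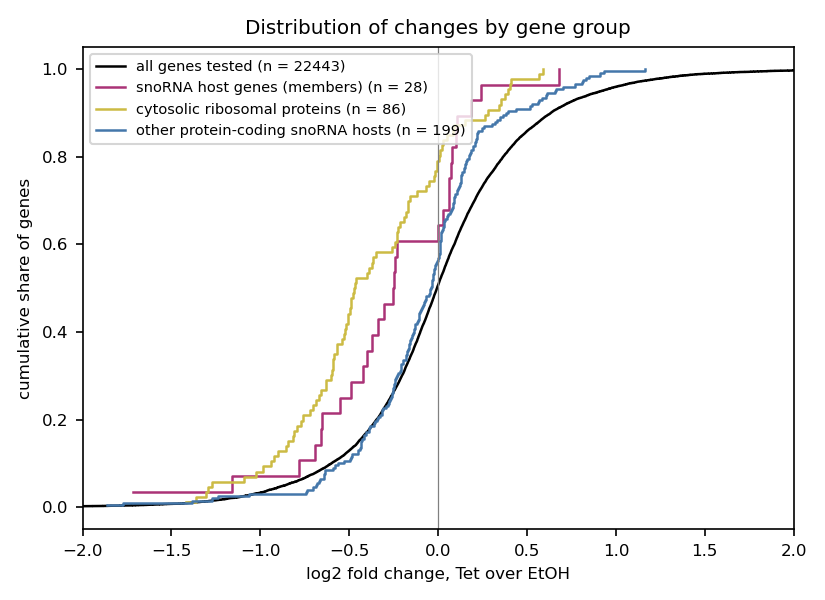
Cumulative share of genes by log2 fold change of Tet over EtOH for all 22443 genes tested, the 28 host genes, 86 cytosolic ribosomal protein genes and 199 other protein-coding genes that hold a snoRNA gene, between -2 and 2. The curves of the host genes (median -0.25) and ribosomal proteins (median -0.47) lie to the left of the curve of all genes, and that of the other hosts (median -0.04) runs close to it.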

How the data were processed

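Total RNA depleted of ribosomal RNA was sequenced in 6 libraries, 3 labelled EtOH and 3 labelled Tet. The deposited values are estimated counts per gene on GRCh38: per the file headers, the authors counted unique STAR alignments over exons with featureCounts 1.6.4, dividing a read pair among overlapping genes and ignoring strand, so antisense partners cannot be told apart and near-identical copies lose reads. The submitters' processing notes name STAR 2.7.1a and featureCounts 1.5.1, and the study's methods give other options, which use the strand and multiple alignments. The headers were followed. Between 12.3% and 14.7% of genes had values that were not whole. All 92 spike-in sequences were at 0 and left out. Each table held 60651 genes, of which 60437 (99.7%) had a symbol.

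Estimated counts were rounded, filtered with filterByExpr and scaled by TMM, and Tet was compared with EtOH by the quasi-likelihood test of edgeR 4.0.16 in R 4.3.3, without a block, with Benjamini-Hochberg adjustment over all 22443 genes tested and a threshold of 0.05. The SE is the size of the log2 fold change over the square root of F. TPM used the length of all annotated exon bases, and the GC share was read from the genome over the same bases. Replicates of a label differed by more than sampling noise (chi-square per degree of freedom 10.2 to 128 over genes with at least 10 counts), and each counted once.

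The 32 genes and all lists were chosen with earlier results of these data known. Named with values in every library were the 10 host genes of the highest mean TPM, the 5 with the largest and the 5 with the smallest log2 fold change, any past the threshold, and MYCN. Named with fewer values were the 10 snoRNA genes of the highest mean CPM and the extremes of each list. One list extreme and one marker are not reported here. Other genes are named by counts, ranges or means, and those named beyond this rule (the overlapping genes, SNORA24 and SNORA13 among them) were chosen after their values were seen. Alternatives were other scalings, no filter, DESeq2 1.42.0, a replicate block, unrounded counts, removal of mitochondrial genes and MALAT1, and each library left out. The GC correction, the removal of both libraries numbered 2 and the count without overlap in other settings were added after the data were seen. Promoter windows (RefSeq, 250 bases before to 50 bases after the start) were matched by symbol.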

Additional observations from a re-analysis of the deposited data

How the results depend on the processing

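The median log2 fold change of the host genes stayed below 0 in every setting run, and their summed level stayed lower in the Tet libraries on unscaled CPM, on TPM, without GAS5 and with each library left out. Of the named host genes' alternative values, 249 kept direction and side of the threshold, 11 passed it and 10 turned direction. The number of host genes called was 0, but 1 with DESeq2 (SNHG1), 3 without EtOH replicate 2 and 4 without both libraries numbered 2 (SNHG31, SNHG29, SNHG1 and SNHG4). Leaving out 1 library gave 0 to 3 calls, a median of -0.40 (without Tet replicate 3) to -0.18 (without EtOH replicate 2), 8 to 14 host genes lower with no overlap and a MYCN log2 fold change of -0.22 to 0.21, positive when EtOH replicate 2 (0.21) or Tet replicate 3 (0.07) was dropped. Without both libraries numbered 2 it was 0.13, and 15 host genes did not overlap, beside 25.5% of all genes. The median was -0.40 over host genes with under 10% of exon bases shared and -0.32 over those with at least 5 CPM. The cause of these shifts was not tested.

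Of all genes, 53 were called, 302 with no filter on low counts, 500 with DESeq2, 127 with the GC correction, 874 without both libraries numbered 2 and 0 to 692 when 1 library was left out, the most without EtOH replicate 2 (0 without Tet replicate 1, when 1865 genes had an unadjusted p under 0.05). Of the other snoRNA host genes, 3 were called with no filter and 4 with DESeq2, and 0 to 11 when 1 library was left out. Of the embedded snoRNAs DESeq2 called 2, and leaving out 1 library gave 0 to 1. For the ribosomal proteins leaving out 1 library gave 0 to 27 calls and for the snoRNA particle proteins 0 to 1, all of these without EtOH replicate 2.

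The replicate numbers were shared by the labels, but the deviations of same-numbered libraries correlated at 0.06, 0.51 and 0.22, so the numbers were not taken to pair the libraries. With the replicate block 675 genes were called, 3 of them host genes (SNHG1, SNHG4 and SNHG3, adjusted p = 0.0163, 0.0271 and 0.0333), 12 other snoRNA hosts and 1 ribosomal protein, and SNHG11 turned to -0.055.

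When 1 library was left out, some small changes turned direction: SNHG8 ranged from -0.13 (without Tet replicate 2; -0.10 without EtOH replicate 1 and -0.09 without EtOH replicate 3) to 0.37, SNHG22 from -0.19 (without Tet replicate 3; -0.10 without EtOH replicate 2) to 0.59, SNHG11 from -0.52 (without Tet replicate 3; -0.18 without EtOH replicate 2) to 0.53, EPB41L4A-AS1 from -0.018 (without Tet replicate 3) to 0.11, and SNHG20 from -0.13 (without Tet replicate 3) to 0.21. Depth limits the genes under 1 CPM, in which 3 counts are worth about 0.1 CPM.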
